A study of Mus musculus with 6 samples.

Results

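The genes described here encode the precursors of 10 neuropeptides of the spinal cord: Tac1, Penk, Pdyn, Npy, Gal, Sst, Cck, Nts, Grp and Adcyap1. They were chosen by name as neuropeptide genes and are 10 of the 37475 genes in the deposited table. RNA sequencing was done on spinal cord of wild-type mice that had received a contusion, a crushing blow to the cord, at thoracic level 10 (T10), and was taken on day 3. The SCI+Syr group was given syringin, a plant phenylpropanoid glucoside, intraperitoneally at 50 mg/kg a day for 3 days, and the SCI group was given PBS, a saline buffer, in the same way. Each group held 3 biological replicates, both groups were injured, and uninjured cord was not analysed here. Age, sex and the length of cord taken are not given in the sources used here.

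Neuropeptides are cut from larger precursors in the secretory pathway, stored in dense-core vesicles and released to act on G protein-coupled receptors. In the dorsal horn of the mouse cord, Tac1, Sst, Cck, Nts and Grp mark mainly excitatory interneurons. Npy, Gal and Pdyn mark mainly inhibitory ones, and Penk is found in both kinds. Tac1, Gal and Adcyap1 are also made by sensory ganglion neurons, whose central axons enter the cord while their cell bodies lie outside it.

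No neuropeptide gene passed the test of a difference between the groups at an adjusted p of 0.05. Of the 10 genes, 0 passed in edgeR's quasi-likelihood fit after Benjamini-Hochberg adjustment over 22114 genes, of which 5.01% passed. At an unadjusted p under 0.05 there were 3 of the 10 genes (Cck, Npy and Sst), where 23.6% of all genes tested had one. The libraries of the groups did not overlap for these same 3 genes, against 30% of all genes tested. Cck and Sst had lower values and Npy higher values in the SCI+Syr libraries. The median log2 fold change was -0.21 over the 10 genes and 0.01 over all genes tested, with 6 negative and 4 positive. On the same samples DESeq2 called 3 of the 10 genes (Cck, Npy and Sst), limma-voom 1 (Cck) and limma on log2(FPKM + 0.1) 2 (Cck and Npy), where these tools called 17.5%, 4.76% and 3.36% of the genes they tested.

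The libraries held between 65579117 and 78843034 counts. Their small counts pile up at multiples of 4 (the value 4 was 1.51 times as frequent as its neighbours), so a fragment may add about 4 counts, in which case the counting error is larger than the totals imply. All 10 neuropeptide genes passed the filter on low counts, with between 194 and 7397 counts in each library. Genes of the cord's own cells were detected in every library, among them all 6 oligodendrocyte, 8 astrocyte and 14 general neuron markers. The libraries differed in markers of sensory ganglion neurons: the 14 markers summed to 189.6, 6.499 and 71.2 CPM (counts per 1e+06, after TMM scaling) in SCI+Syr libraries 1, 2 and 3, and to 194.0, 13.9 and 11.3 CPM in SCI libraries 1, 2 and 3. Of these 14 markers, 0, 6 and 0 were at 0 counts in the SCI+Syr libraries, and 1, 2 and 6 in the SCI libraries. Markers of spinal neurons summed to 2639 to 3991 CPM in the SCI+Syr and 4919 to 6141 CPM in the SCI libraries. In each group the highest of these sums was in library 1, which also had the group's highest ganglion marker sum. The part of ganglion neurons in these sums was not tested. Of the 14 spinal neuron markers 5 fell, where 3.39% of all genes tested were called lower. Markers of monocytes, macrophages and microglia summed to 2318 to 5787 CPM in the SCI+Syr and 1688 to 2096 CPM in the SCI libraries. Of these 10 markers 2 rose, where 1.62% of all genes tested were called higher. The list was mixed, with 8 positive and 2 negative log2 fold changes. Without overlap between the groups, 3 markers lay higher and 1 lower, against 14.7% and 15.3% of all genes tested. In bulk tissue, fewer cells of a type and less RNA per cell cannot be told apart. The number of called genes changed with the libraries kept: without SCI replicate 3, edgeR called 0 of all genes. It called 0 of the neuropeptide genes without any 1 of the 6 libraries.

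Per transcript length, Penk was the most abundant of the 10 genes. Its level ran from 39.15 to 61.63 FPKM (fragments per kilobase of transcript per 1e+06 fragments, as deposited) over the 6 libraries, and it was the first of the 10 in each of them. Sst followed at 14.07 to 36.39 FPKM, below Penk in 6 of 6 libraries and above Npy in 5 of 6. Npy (10.49 to 15.63 FPKM) and Adcyap1 (9.39 to 16.21 FPKM) came next, and which of these was higher changed from library to library, with Npy above Adcyap1 in 3 of 6. Gal (4.65 to 10.82 FPKM), Nts (3.55 to 8.61 FPKM), Tac1 (2.35 to 10.93 FPKM) and Cck (3.01 to 7.60 FPKM) had overlapping ranges. Neighbours in that order differed by less than their spread: Gal was above Nts in 3 of 6 libraries, Nts above Tac1 in 5, Tac1 above Cck in 3 and Cck above Pdyn in 4. Pdyn had 3.26 to 6.33 FPKM, and Grp was the lowest at 1.71 to 2.63 FPKM, below Pdyn in 6 of 6 libraries. Penk made up 35.1% to 40.7% of the summed FPKM of the 10 genes, so its share varied little although the sum itself was 96.2 FPKM in SCI+Syr library 2 and 132.1 to 152.9 FPKM in the other 5 libraries.

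**Figure D1:**
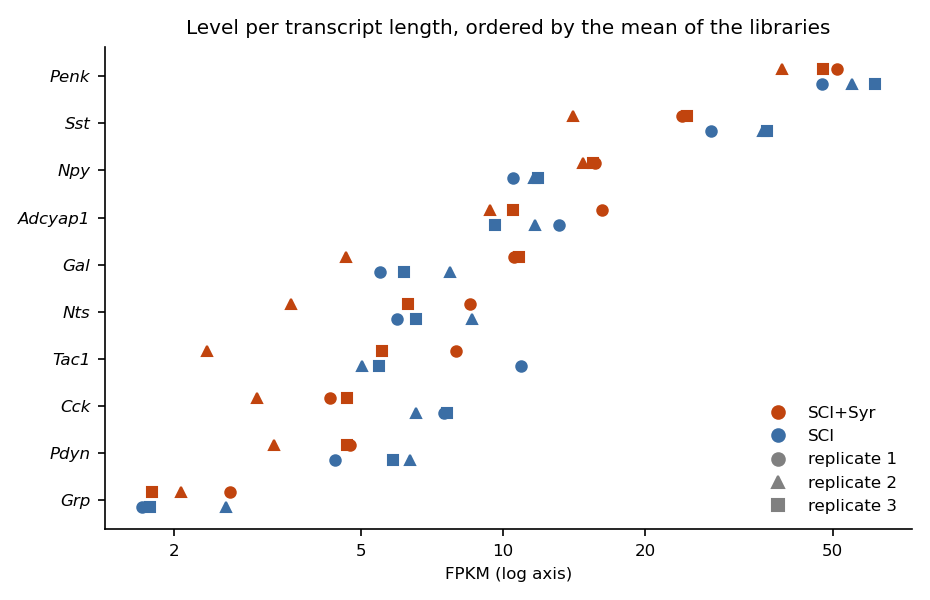
FPKM of each neuropeptide gene (log axis) in the 3 SCI+Syr (orange) and 3 SCI (blue) libraries, 1 symbol per library and replicate number, with genes ordered by their mean. Penk (39.15 to 61.63 FPKM) lies right of all others and Grp (1.71 to 2.63 FPKM) left of nearly all, while the genes between them overlap.

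Cck, Sst and Npy were the genes whose groups did not overlap, and the stretches just upstream of their RefSeq start sites are shown with that of Tac1, the gene that differed most between libraries. RefSeq gives a promoter for 8 of the 10 genes in the table used (build GRCm38.p6). Each stretch is the 100 bases before the start site, 5′ to 3′ on the gene's strand. Capitals mark the cyclic AMP response element TGACGTCA or its shorter core TGACG, searched on both strands. The element contains the core on each strand, so its match is counted under both.
Sst (chr16:23890845-23890944, minus strand): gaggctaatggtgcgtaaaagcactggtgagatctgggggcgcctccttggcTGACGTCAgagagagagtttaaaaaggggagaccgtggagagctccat
Cck (chr9:121495695-121495794, minus strand): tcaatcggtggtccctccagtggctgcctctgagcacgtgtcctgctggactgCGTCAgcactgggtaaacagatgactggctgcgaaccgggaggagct
Npy (chr6:49822610-49822709, plus strand): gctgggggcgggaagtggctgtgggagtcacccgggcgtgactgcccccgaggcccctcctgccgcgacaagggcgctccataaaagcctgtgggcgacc
Tac1 (chr6:7554961-7555060, plus strand): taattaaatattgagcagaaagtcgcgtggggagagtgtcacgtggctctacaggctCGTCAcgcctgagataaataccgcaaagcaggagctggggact
The whole element was found in the Sst stretch, from position -48 to -41 counted from the start site. The core alone was found in Cck from -47 to -43 and in Tac1 from -43 to -39, and neither in Npy. Of the other genes in the table, Adcyap1 held the core from -91 to -87 before 1 of its 2 start sites. Among 32851 stretches of the same length in the RefSeq table, 1.15% held the whole element and 10.5% the core. Sst and Cck, which had lower values in the SCI+Syr group, and Tac1, whose groups overlapped, thus share the core, and these matches are a description of letters only.

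Cck encodes cholecystokinin, a peptide of excitatory dorsal horn interneurons that counteracts opioid analgesia. Cck (ENSMUSG00000032532, chromosome 9, 121318890 to 121324705 in the deposited table) had 5.99, 4.40 and 6.80 CPM in SCI+Syr libraries 1, 2 and 3, against 10.5, 9.23 and 10.7 CPM in SCI libraries 1, 2 and 3. Every SCI+Syr library lay below every SCI library, and the libraries rich in ganglion transcripts, SCI+Syr library 1 and SCI library 1, did not stand out from the others of their groups. The log2 fold change of Cck was -0.82 ± 0.19 (SE, n = 3 in each group, 95% interval -1.27 to -0.38), which narrowly missed the threshold (edgeR adjusted p = 0.0524). In 9 of 13 other ways of fitting the 6 libraries Cck passed, with adjusted p between 0.00108 and 0.0541 over the 13. Beside the 3 tools above, these were fits without a filter on low counts, with a filter of 1 CPM, with counts divided by 4, with a length and GC correction, with the replicate number as a block and with a covariate for ganglion markers, which called 3.24%, 8.1%, 7.34%, 4.93%, 11.6% and 11.6% of the genes they tested. It did not pass with RLE, upper-quartile or no composition factors or without robust estimation, which called 5.02%, 4.99%, 4.53% and 4.7%. Without any 1 library Cck did not pass, and its value lay between -0.97 and -0.67. The fits without SCI+Syr library 1, 2 or 3 called 8.55%, 1.9% and 1.1% of all genes, and those without SCI library 1, 2 or 3 called 1.16%, 0.806% and 0%.

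Sst encodes somatostatin, an inhibitory peptide that in the mouse dorsal horn marks excitatory interneurons. Sst (ENSMUSG00000004366, chromosome 16, 23708323 to 23709708) had 18.4, 11.3 and 19.5 CPM in the SCI+Syr libraries, against 21.5, 27.7 and 28.2 CPM in the SCI libraries. The groups did not overlap, but SCI+Syr library 3 and SCI library 1 lay close together, and SCI+Syr library 2 stood well below the rest. The log2 fold change of Sst was -0.65 ± 0.22 (95% interval -1.15 to -0.15, edgeR adjusted p = 0.121). It was -0.44 without SCI+Syr replicate 2, and DESeq2 was the only 1 of the 13 other fits to call it (adjusted p = 0.0306).

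Npy encodes neuropeptide Y, a peptide of inhibitory dorsal horn interneurons that dampens spinal pain transmission. Npy (ENSMUSG00000029819, chromosome 6, 49799690 to 49806487) had 9.43, 9.32 and 9.73 CPM in the SCI+Syr libraries, against 6.40, 7.13 and 7.21 CPM in the SCI libraries. Npy had the smallest SD within the SCI+Syr group of the 10 genes (0.212 CPM around a mean of 9.49), and all 3 lay above all SCI libraries, including SCI+Syr library 2, where 7 of the 10 genes had their lowest value. The log2 fold change of Npy was 0.46 ± 0.14 (95% interval 0.14 to 0.78, edgeR adjusted p = 0.1). Npy passed with DESeq2 (adjusted p = 0.00995) and with limma on log2(FPKM + 0.1) (adjusted p = 0.0415), and its value lay between 0.34 and 0.47 over the 13 other fits.

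**Figure D2:**
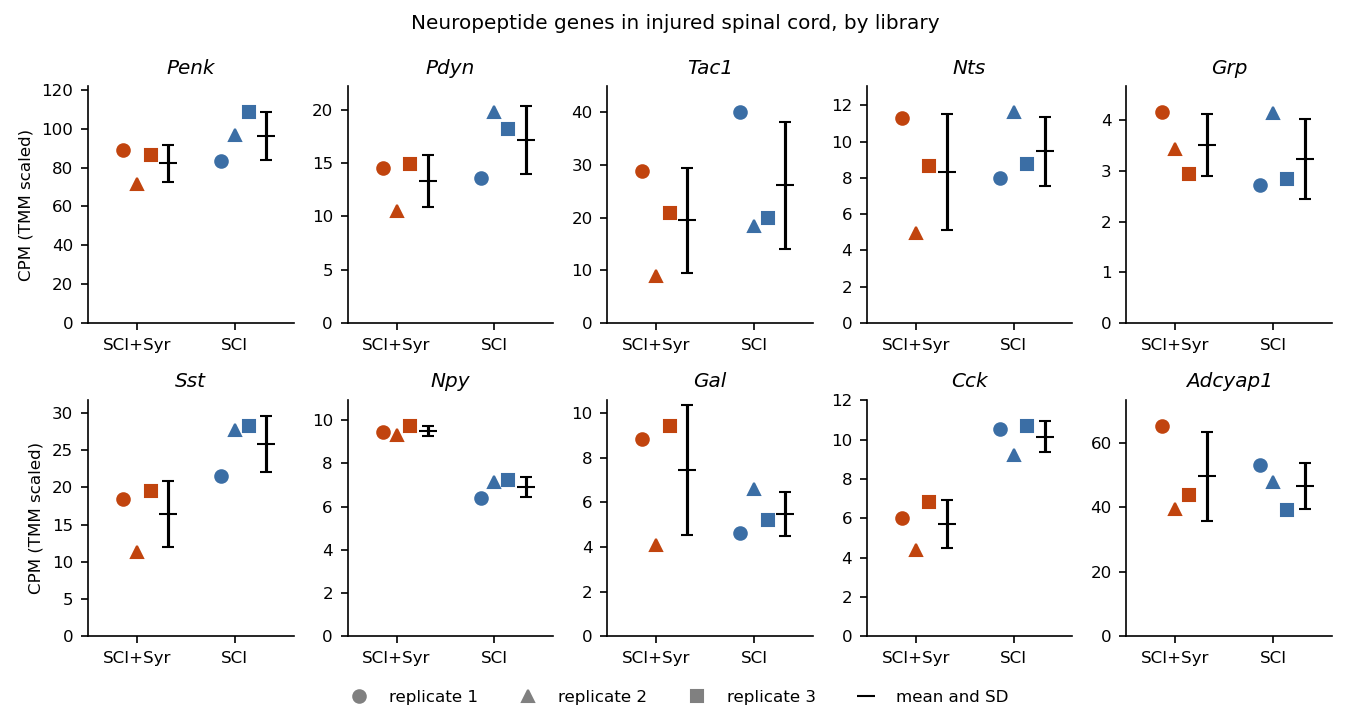
CPM of the 10 neuropeptide genes, 1 panel each with its own axis from 0, with the SCI+Syr libraries (orange) left of the SCI libraries (blue), symbols for replicates 1 to 3, and the mean and SD of each group (n = 3). The groups are separate for Cck, Sst and Npy, and the triangle of SCI+Syr replicate 2 is the lowest point in 7 of 10 panels.

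The opioid precursor genes had slightly lower means in the SCI+Syr group, within the spread of the libraries. Penk encodes proenkephalin, the source of the enkephalins, which act mainly on delta and mu opioid receptors. It had 89.0, 71.4 and 86.4 CPM in the SCI+Syr libraries, against 83.3, 97.0 and 108 CPM in the SCI libraries. SCI library 1 fell inside the SCI+Syr range, so the groups overlapped, with a log2 fold change of -0.23 ± 0.13 (95% interval -0.52 to 0.07, edgeR adjusted p = 0.331). It was -0.13 without SCI+Syr replicate 2 or SCI replicate 3. Pdyn encodes prodynorphin, the source of the dynorphins, which act mainly on the kappa opioid receptor. It had 14.6, 10.5 and 14.9 CPM in the SCI+Syr libraries, against 13.6, 19.8 and 18.2 CPM in the SCI libraries. Here too SCI library 1 lay among the SCI+Syr values, with a log2 fold change of -0.37 ± 0.19 (95% interval -0.81 to 0.07, edgeR adjusted p = 0.296), and it was -0.22 without SCI+Syr replicate 2. An antisense non-coding gene, A830012C17Rik, overlaps Penk in the deposited table but had only 182 counts over all 6 libraries.

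Tac1, the gene of substance P and neurokinin A, differed most between libraries. It had 28.8, 8.96 and 20.8 CPM in SCI+Syr libraries 1, 2 and 3, against 39.98, 18.4 and 19.98 CPM in SCI libraries 1, 2 and 3. The highest library of each group was also the one with the highest summed level of sensory ganglion markers (189.6 CPM in SCI+Syr library 1 and 194.0 CPM in SCI library 1). The log2 fold change of Tac1 was -0.42 ± 0.45 (95% interval -1.47 to 0.63, edgeR adjusted p = 0.636). It was 0.026 without SCI replicate 1 and -0.82 without SCI+Syr replicate 1. With the mean of the ganglion markers per library as a covariate, the value was -0.71 (edgeR adjusted p = 0.0198), in a fit that called 11.6% of all genes and, of the neuropeptide genes, Tac1 and Cck. Among the 3 libraries with few ganglion transcripts, Tac1 had 8.96 CPM in SCI+Syr library 2, against 18.4 and 19.98 CPM in SCI libraries 2 and 3, a comparison with no replicate in the SCI+Syr group.

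Nts, the gene of neurotensin, had 11.3, 4.95 and 8.67 CPM in the SCI+Syr libraries, against 7.998, 11.6 and 8.79 CPM in the SCI libraries. The SCI+Syr libraries spanned the whole range of the SCI group except its highest value, with a log2 fold change of -0.19 ± 0.30 (95% interval -0.87 to 0.50, edgeR adjusted p = 0.761), which was 0.078 without SCI+Syr replicate 2. Grp encodes gastrin-releasing peptide, which carries itch signals in the mouse dorsal horn. It was close to 3 CPM in most libraries, with 4.16, 3.43 and 2.94 CPM in the SCI+Syr libraries, against 2.73, 4.15 and 2.84 CPM in the SCI libraries. The groups overlapped almost wholly, with a log2 fold change of 0.12 ± 0.25 (95% interval -0.46 to 0.69, edgeR adjusted p = 0.831).

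Gal, the gene of galanin, is known to be induced in sensory neurons after nerve injury. It had 8.84, 4.10 and 9.44 CPM in SCI+Syr libraries 1, 2 and 3, against 4.63, 6.58 and 5.22 CPM in SCI libraries 1, 2 and 3. SCI+Syr libraries 1 and 3 were the highest of all 6 and SCI+Syr library 2 the lowest. SCI+Syr libraries 1 and 3 were also those of their group with the higher ganglion marker sums, whereas SCI library 1, with a sum of 194.0 CPM, had the lowest Gal of its group, and the part of ganglion RNA in Gal was not tested beyond the covariate fit. The log2 fold change of Gal was 0.45 ± 0.32 (95% interval -0.28 to 1.17, edgeR adjusted p = 0.443), 0.74 without SCI+Syr replicate 2 and 0.30 with the ganglion covariate. Adcyap1 encodes PACAP, which raises cyclic AMP through its receptor and is known to be induced in injured neurons. It had 65.3, 39.6 and 43.9 CPM in the SCI+Syr libraries, against 53.2, 47.7 and 39.2 CPM in the SCI libraries. The groups overlapped, with the highest library of each being the one richest in ganglion transcripts, and the log2 fold change was 0.09 ± 0.20 (95% interval -0.37 to 0.54, edgeR adjusted p = 0.844).

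The 10 genes did not vary as a block, and much of their shared variation lay in a single library. Relative to each gene's mean over the 6 libraries, their average log2 CPM was 0.19, -0.50 and 0.04 in SCI+Syr libraries 1, 2 and 3, against 0.03, 0.18 and 0.06 in SCI libraries 1, 2 and 3. SCI+Syr library 2 thus stood apart, and it held the lowest value of 7 genes and the highest of none. Without SCI+Syr replicate 2, the median log2 fold change of the 10 genes was 0.00, with 5 negative and 5 positive. The spinal neuron markers averaged -0.04, -0.79 and -0.36 in the SCI+Syr libraries and 0.51, 0.27 and 0.41 in the SCI libraries on the same scale, so they were lower in every SCI+Syr library, which the neuropeptide genes were not. Set against the neuron marker mean of the same library, 5 of the 10 genes (Penk, Npy, Gal, Grp and Adcyap1) had higher values in every SCI+Syr library than in any SCI library, but so did 59% of all genes tested. Over the 6 libraries, the genes whose log2 CPM pattern came nearest to the average of the 10, out of 14440 candidates, were Hoxa9, Samd11 and Rtl5, with root mean square differences of 0.07 on the log2 scale.

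**Figure D3:**
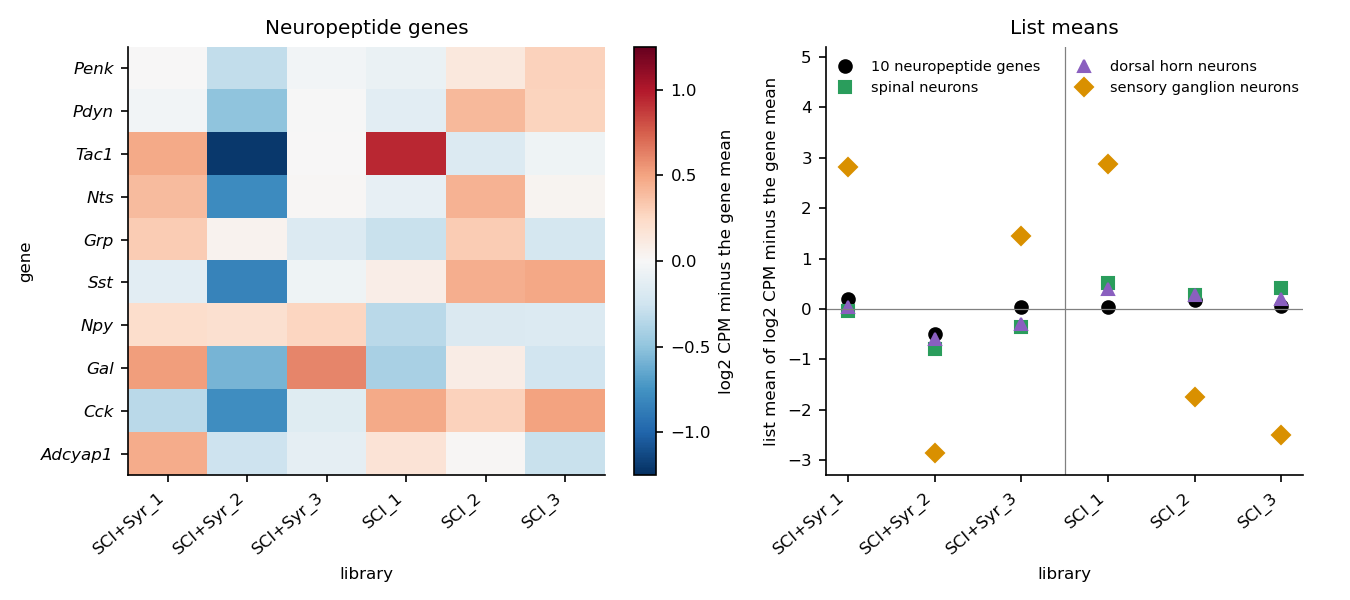
Left, log2 CPM of each neuropeptide gene minus its mean over the 6 libraries, by library, with red above and blue below the mean. Right, the means of the same quantity over the 10 neuropeptide genes and over 3 marker lists, where SCI+Syr library 2 has the lowest neuropeptide mean (-0.50) and the ganglion markers range far more widely than the others.

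Receptor genes of these and related peptides fell in part, whereas no peptide gene passed the test; the difference between the lists was not tested. Of 29 receptor genes 28 were tested, 6 fell, none rose and 22 did not pass, where 3.39% of all genes tested were called lower. Their median log2 fold change was -0.75, with 24 of 28 negative. The spinal neuron markers moved with them, at a median of -0.78 with 14 of 14 negative and 5 called lower. Of the 14, 11 lay lower without overlap between the groups, against 15.3% of all genes tested. The part of neurons in the receptor values was not tested. Opioid receptors supplied 3 of the 6. Oprk1, the kappa receptor of the dynorphins, had 1.69, 1.49 and 2.87 CPM in the SCI+Syr libraries, against 4.71, 5.28 and 5.36 CPM in the SCI libraries (log2 fold change -1.34 ± 0.28, edgeR adjusted p = 0.0402). Oprd1, the delta receptor of the enkephalins, had 1.38, 0.767 and 1.09 CPM in the SCI+Syr libraries, against 2.52, 2.54 and 3.11 CPM in the SCI libraries (-1.33 ± 0.29, edgeR adjusted p = 0.0424). The groups lay clearly apart for both, at counts as low as 49 in a library. Oprl1, the receptor of nociceptin, fell by 0.99 ± 0.18 on the log2 scale, to 14.7 ± 3.33 CPM in the SCI+Syr group, against 29.1 ± 2.19 CPM in the SCI group (mean ± SD, n = 3 each; edgeR adjusted p = 0.026). Oprm1, the mu receptor, had a value of -1.85 ± 0.65 and did not pass (edgeR adjusted p = 0.139).

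Tacr1, the substance P receptor of dorsal horn projection neurons, had 3.28, 2.80 and 3.97 CPM in the SCI+Syr libraries, against 5.43, 6.60 and 7.65 CPM in the SCI libraries. It fell by 0.97 ± 0.22 on the log2 scale (edgeR adjusted p = 0.0457), while its ligand gene Tac1 overlapped between the groups. The Tacr1 call was lost without any 1 library, in fits that called 0% to 8.55% of all genes. It was also lost with the length and GC correction (adjusted p = 0.071) and with limma on log2(FPKM + 0.1) (adjusted p = 0.0755). Oprk1 was lost in the same corrected and FPKM fits (adjusted p = 0.0542 and 0.058), and Oprd1 and Vipr2 in the FPKM fit (adjusted p = 0.0559 and 0.0529). Adcyap1r1, the PACAP receptor, had 144, 123 and 122 CPM in the SCI+Syr libraries, against 187, 207 and 201 CPM in the SCI libraries (-0.61 ± 0.10, edgeR adjusted p = 0.0207). Vipr2, which also binds PACAP, had 1.09, 0.908 and 0.955 CPM in the SCI+Syr libraries, against 2.37, 2.08 and 2.39 CPM in the SCI libraries (-1.21 ± 0.24, edgeR adjusted p = 0.035). These receptors of PACAP were lower in all SCI+Syr libraries, whereas Adcyap1 itself was not. Vipr1, the other receptor that binds PACAP, had 1.10, 1.69 and 1.65 CPM in the SCI+Syr libraries, against 0.940, 0.803 and 0.909 CPM in the SCI libraries, so it lay higher in every SCI+Syr library but did not pass (0.74 ± 0.29, edgeR adjusted p = 0.176). Among receptors that did not pass, Ntsr2 of neurotensin, which astrocytes also express, had a value of -1.27 ± 0.39 (edgeR adjusted p = 0.106), and Cckbr of cholecystokinin -0.62 ± 0.19 (edgeR adjusted p = 0.104). The astrocyte markers had a median log2 fold change of -0.58, and 3 of 8 fell, where 3.39% of all genes tested were called lower. Their summed level was 4794 to 6656 CPM in the SCI+Syr and 7263 to 8766 CPM in the SCI libraries. The part of astrocytes in these values was not tested. The sign was also positive in Sstr5 of somatostatin (1.22 ± 0.41), which did not pass (edgeR adjusted p = 0.127). The receptor count changed with the library left out, being 7 without SCI+Syr replicate 1 and 1 without SCI+Syr replicate 2 or 3. It was 1 without SCI replicate 1 and 0 without SCI replicate 2 or 3. Of all genes, the fits without SCI+Syr replicate 1, 2 or 3 called 8.55%, 1.9% and 1.1%. Those without SCI replicate 1, 2 or 3 called 1.16%, 0.806% and 0%, against 5.01% in the main fit.

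The other receptor genes of these peptides did not pass the test. Of all 28 receptor genes tested, 18 lay lower and 2 higher without overlap, against 15.3% and 14.7% of all genes tested. Oprm1, Ntsr2, Cckbr, Tacr3, Ntsr1 and Nmbr were among the 18. Among the somatostatin receptors, Sstr1, Sstr2 and Sstr3 had values of -0.82 ± 0.27, -0.90 ± 0.33 and -0.92 ± 0.25 on the log2 scale, with every SCI+Syr library below every SCI library, and Sstr4 had -0.08 ± 0.48. Sstr3 (edgeR adjusted p = 0.0768) came nearest to the threshold of these. Among the neuropeptide Y receptors, Npy1r, the main dorsal horn form, had 7.83, 5.21 and 5.203 CPM in the SCI+Syr libraries, against 10.3, 7.70 and 8.002 CPM in the SCI libraries. SCI+Syr library 1 lay between SCI libraries 2 and 3, so the groups overlapped (-0.51 ± 0.22, edgeR adjusted p = 0.209). Npy5r had -1.15 ± 0.32 without overlap (edgeR adjusted p = 0.085) and Npy2r -0.13 ± 0.58, while Npy4r did not pass the filter on low counts. Of the galanin receptors, Galr1 (-0.68 ± 0.38) and Galr2 (-0.99 ± 0.36) had groups that did not overlap and Galr3 (-0.03 ± 0.48) had groups that did. Tacr3, the receptor of neurokinin B, had -1.20 ± 0.33 (edgeR adjusted p = 0.0816) and Tacr2, that of neurokinin A, -0.48 ± 0.77. Of the neurotensin receptors, Ntsr1 had -1.22 ± 0.45 and the sorting receptor Sort1 -0.25 ± 0.16. Grpr, the itch receptor that binds gastrin-releasing peptide, was at 0.088 to 0.470 CPM in the SCI+Syr and 0.193 to 0.308 CPM in the SCI libraries, too few counts for a narrow estimate (0.04 ± 0.66), and Nmbr, its relative, had -0.63 ± 0.40.

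**Figure D4:**
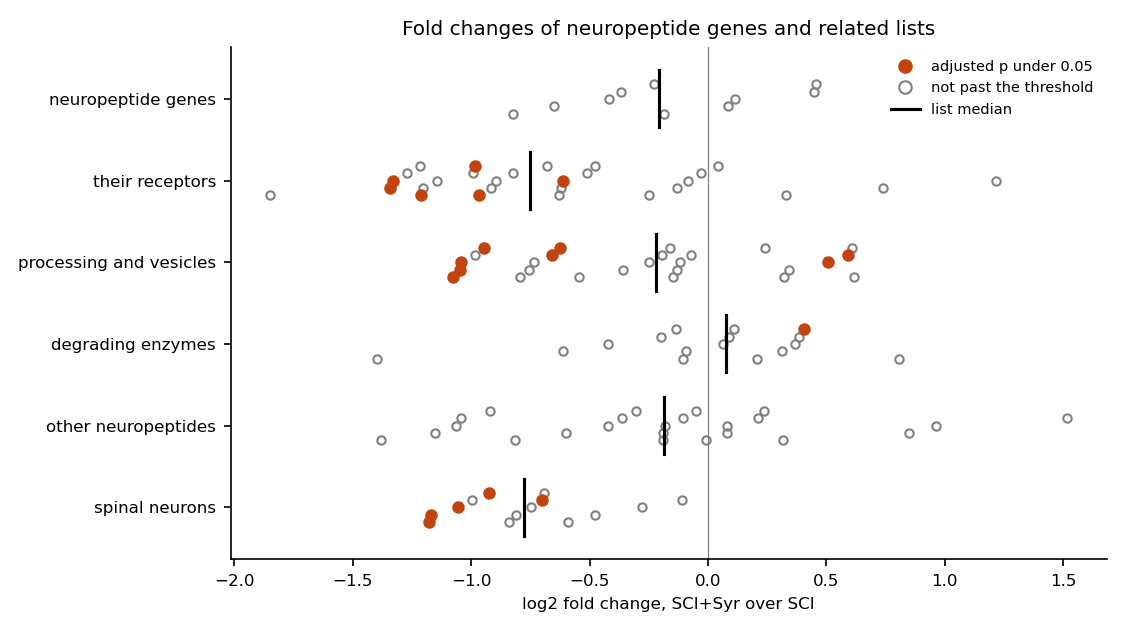
log2 fold changes, SCI+Syr over SCI, of every tested gene in the neuropeptide list and related lists, 1 point per gene, filled where the edgeR adjusted p was under 0.05, with a bar at each list's median. None of the 10 neuropeptide genes is filled (median -0.21), while 6 of 28 receptor genes are, all left of 0 (median -0.75).

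Of 26 genes for peptide processing and dense-core vesicles, 6 fell, 2 rose and 18 did not pass (median log2 fold change -0.22), where 3.39% of all genes tested were called lower and 1.62% higher. The fallen genes included 3 granins, acidic proteins that pack peptides into vesicles. Chga had 52.0, 45.9 and 69.2 CPM in the SCI+Syr libraries, against 116, 108 and 121 CPM in the SCI libraries (-1.05 ± 0.15, edgeR adjusted p = 0.0178). Chgb had 54.5, 38.9 and 48.1 CPM in the SCI+Syr libraries, against 92.9, 86.7 and 93.5 CPM in the SCI libraries (-0.95 ± 0.13, edgeR adjusted p = 0.0142). For both granins the groups lay far apart compared with their spread. The spinal neuron markers were lower in the same libraries (median -0.78), and their part in these values was not tested. Scg3, another granin, fell by 0.63 ± 0.12, Ptprn2 of the vesicle membrane by 1.08 ± 0.16, and the vesicle GTPase gene Rab3a by 1.04 ± 0.15 (edgeR adjusted p = 0.0302, 0.0187 and 0.0186). Scg2, a further granin, had 260.0, 141.3 and 148.8 CPM in the SCI+Syr libraries, against 243.4, 242.8 and 218.6 CPM in the SCI libraries. Its SCI+Syr library 1 lay above every SCI library, and it did not pass (-0.36 ± 0.22, edgeR adjusted p = 0.381). Scg5, the chaperone of Pcsk2, did not pass either (-0.80 ± 0.20, edgeR adjusted p = 0.0599).

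Among the convertases that cut precursors, Pcsk1 of neuroendocrine cells had 15.4, 10.98 and 13.6 CPM in the SCI+Syr libraries, against 21.2, 21.4 and 20.6 CPM in the SCI libraries (-0.66 ± 0.14, edgeR adjusted p = 0.0434). The Pcsk1 call was lost with the length and GC correction (-0.55, adjusted p = 0.071) and with limma on log2(FPKM + 0.1) (adjusted p = 0.0669). Pcsk2 had a value of -0.98 ± 0.24 and did not pass (edgeR adjusted p = 0.0589). Furin, a convertase of nearly all cell types, rose by 0.51 ± 0.10 (edgeR adjusted p = 0.0302), and the cathepsin gene Ctsl, abundant in macrophage lysosomes and also able to cut proenkephalin, by 0.59 ± 0.13 (edgeR adjusted p = 0.0485). The Ctsl call was lost without composition factors, without robust estimation and with limma on log2(FPKM + 0.1) (adjusted p = 0.058, 0.0509 and 0.058). The summed markers of monocytes, macrophages and microglia given above were higher in the same libraries, with 8 of 10 markers positive and 2 negative. Their part in these values was not tested. Vgf, itself a precursor of neuropeptides, had 430, 294 and 460 CPM in the SCI+Syr libraries, against 256, 290 and 231 CPM in the SCI libraries, a value of 0.61 ± 0.17 that did not pass (edgeR adjusted p = 0.0864). The processing count was 13 without SCI+Syr replicate 1, 5 without SCI+Syr replicate 2, 2 without SCI+Syr replicate 3 or SCI replicate 1 or 2, and 0 without SCI replicate 3. Of all genes, the fits without SCI+Syr replicate 1, 2 or 3 called 8.55%, 1.9% and 1.1%, as given for the receptors. Those without SCI replicate 1, 2 or 3 called 1.16%, 0.806% and 0%.

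Of 16 peptidases that break down neuropeptides, 1 rose, none fell and 15 did not pass (median 0.08), where 1.62% of all genes tested were called higher and 3.39% lower. Thop1, thimet oligopeptidase, which cleaves neurotensin, had 52.1, 46.7 and 49.1 CPM in the SCI+Syr libraries, against 38.8, 36.3 and 36.7 CPM in the SCI libraries (0.40 ± 0.09, edgeR adjusted p = 0.0422). The groups did not overlap. Of the 16 genes, 3 lay higher and 3 lower without overlap, against 14.7% and 15.3% of all genes tested. The Thop1 call was lost without any 1 library, in fits that called 0% to 8.55% of all genes. It was also lost without composition factors, with the length and GC correction and with limma on log2(FPKM + 0.1), which called 4.53%, 4.93% and 3.36%. Mme, neprilysin, the main enkephalin-degrading enzyme, had 3.19, 7.28 and 7.64 CPM in the SCI+Syr libraries, against 10.1, 22.0 and 15.7 CPM in the SCI libraries. All SCI+Syr libraries lay below all SCI libraries, with a value of -1.40 ± 0.38 that did not pass (edgeR adjusted p = 0.079). Schwann cells also express Mme. Of their 5 markers 1 was called lower, where 3.39% of all genes tested were. Without overlap between the groups, 4 of the 5 lay lower and 1 higher, against 15.3% and 14.7% of all genes tested. The median log2 fold change of these markers was -2.06. Their summed level was 280.1 to 446.9 CPM in the SCI+Syr libraries and 453.8 to 1527 CPM in the SCI libraries. The part of Schwann cells in Mme was not tested.

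Of 36 other neuropeptide genes, 35 were in the table and 24 passed the filter on low counts. By edgeR 0 of these 24 passed the adjusted threshold, against 5.01% of all genes tested, and 4 had an unadjusted p under 0.05, all negative, against 23.6%. DESeq2 called 2 of the 21 it gave an adjusted p and limma-voom 0 of 24, where they called 17.5% and 4.76% of all genes they tested. The median log2 fold change was -0.19. Calca, the gene of calcitonin and CGRP and a product of sensory ganglion neurons, had 59.4, 6.84 and 37.6 CPM in SCI+Syr libraries 1, 2 and 3, against 86.6, 21.8 and 10.1 CPM in SCI libraries 1, 2 and 3. Its values were highest in the 3 libraries with the highest ganglion marker sums. Tac2, the gene of neurokinin B in dorsal horn interneurons, had 9.10, 4.89 and 9.52 CPM in the SCI+Syr libraries, against 9.94, 11.9 and 9.69 CPM in the SCI libraries. Every SCI+Syr library lay below every SCI library for Tac2. Of the 24 genes, 6 lay lower and 1 higher without overlap, against 15.3% and 14.7% of all genes tested. Apart from SCI+Syr library 2 the Tac2 values lay within 9.10 to 11.9 CPM, with a log2 fold change of -0.42 ± 0.25 (edgeR adjusted p = 0.369). The nociceptin precursor gene Pnoc, whose receptor gene Oprl1 fell, had 8.95, 5.29 and 7.48 CPM in the SCI+Syr libraries, against 7.16, 9.76 and 7.88 CPM in the SCI libraries. The groups overlapped, with a value of -0.19 ± 0.23 (edgeR adjusted p = 0.671).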

How the data were processed

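The authors deposited 1 table that gives, for every gene and each of 6 libraries, an estimated count and an FPKM. Per the labels' protocols, RNA was extracted with TRIzol and libraries were made with a stranded TruSeq mRNA kit. The submitters' processing notes name HISAT2, StringTie and the builds GRCm38 and mm10. The sources used here do not say whether counting used strand. Of 34804 gene IDs shared with GENCODE M21 (GRCm38), 717 have the same start, so the build of the deposited coordinates is uncertain.

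The deposited estimated counts are whole numbers, so rounding changed nothing. Genes were kept by filterByExpr with a minimum count of 10 and a minimum total of 15 (22114 genes). TMM factors ran from 0.965 to 1.03. The robust quasi-likelihood model of edgeR 4.0.16 (R 4.3.3) was fitted with treatment as its single term. Calls were made at a Benjamini-Hochberg adjusted p of 0.05 over all genes tested, two-sided. Each standard error was obtained by dividing the size of the log2 fold change by the root of its F statistic, and intervals use the fit's degrees of freedom. Log2 CPM used a prior count of 2. The common biological coefficient of variation was 24.9%. Within a group, pairs of libraries differed beyond sampling noise (chi-square per degree of freedom 28.7 to 133.5).

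The neuropeptide genes, related lists and alternatives were chosen with earlier results of these data known. All 10 neuropeptide genes were named, and of each other list the genes past the threshold (at most 6 by smallest p, and here all 8 of the processing list); other genes named were chosen after their values were seen. Like-patterned genes had a mean of 1 CPM or more and were no clone or predicted names. Alternatives used DESeq2 1.42.0, limma 3.58.1, other scalings and filters, counts divided by 4, FPKM with a pseudocount of 0.1, a per-library spline correction for transcript length and GC content (values for 97.3% of genes tested), the ganglion marker mean as a covariate, the replicate number as a block, and each library left out. Promoter sequences are RefSeq's. Python 3.11.15, pandas 2.3.3 and matplotlib 3.10.9 were used for tables and figures.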

Additional observations from a re-analysis of the deposited data

How the results depend on the processing

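Of 22114 genes tested, 1108 (5.01%) were called, 2557 (11.6%) with the replicate block and 2560 (11.6%) with the ganglion covariate. DESeq2 called 3191 of the 18244 genes it gave an adjusted p (17.5%). When 1 library was left out, 22743 to 22930 genes were tested and 0 to 1944 called (0% to 8.55%). Of the neuropeptide genes, 0 were called by edgeR; 3 were called with DESeq2, 2 with limma on log2(FPKM + 0.1) and with the ganglion covariate, and 1 (Cck) with limma-voom, without a filter, with a filter of 1 CPM, with the replicate block, with counts divided by 4 and with the length and GC correction. Of 28 receptors 6 were called, and 2 with limma on FPKM, which called 3.36% of all genes. DESeq2 called 13 of the 25 receptors it gave an adjusted p, and 0 to 7 were called with a library left out. Of the processing genes, 8 were called, 14 with DESeq2 and with the ganglion covariate, 13 with the replicate block, and 0 to 13 with a library left out. Of the degrading enzymes, 1 was called, 5 with DESeq2, 6 with the replicate block, 3 with the ganglion covariate, and 0 without composition factors, with limma on FPKM and with any library left out. Of 24 other neuropeptides 0 were called, and DESeq2 called 2 of the 21 it gave an adjusted p. The sign of Adcyap1 turned with the ganglion covariate (-0.0095). With a library left out, log2 fold changes ran from -0.17 to 0.22 for Adcyap1, from -0.028 to 0.33 for Grp, from -0.48 to 0.078 for Nts and from -0.82 to 0.026 for Tac1, and the other 6 neuropeptide genes kept their sign. The cause of these changes was not tested. Same-numbered libraries correlated in their deviations from the group means at 0.29, 0.12 and 0.05. For SCI+Syr replicates 1 and 3 this was the best match, while SCI+Syr replicate 2 correlated slightly better with SCI replicate 3 (0.14). These values do not settle whether the replicate numbers mark pairs. The main fit took no pairs, and the replicate block was run as an alternative. Oprd1 had as few as 49 counts in a library, and it was called with counts divided by 4 (adjusted p = 0.0341).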

Other observations

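Markers of dorsal horn neurons, the cells that make many of these peptides, had negative log2 fold changes in all 12 genes tested (median -0.40). Most of these markers are transcription factors. Of the 12 genes 2 fell, where 3.39% of all genes tested were called lower. The general spinal neuron markers were also negative in 14 of 14 genes (median -0.78), and 5 of them fell. Lbx1, which specifies dorsal horn interneurons in development, had 3.88, 2.66 and 3.09 CPM in the SCI+Syr libraries, against 6.77, 6.96 and 7.99 CPM in the SCI libraries (log2 fold change -1.17 ± 0.20, edgeR adjusted p = 0.0239). Tfap2b had 0.690, 0.626 and 0.544 CPM in the SCI+Syr libraries, against 1.99, 1.20 and 1.57 CPM in the SCI libraries (edgeR adjusted p = 0.0487). For both genes every SCI+Syr library lay below every SCI library. Of the 12 genes 5 lay lower without overlap, against 15.3% of all genes tested. Neither Lbx1 nor Tfap2b was called without SCI replicate 3, but edgeR called 0 genes in all there, so that fit cannot bear on these 2 calls. Their values in the other alternative fits are not given here.

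Cckar, the other cholecystokinin receptor gene, had 314, 1 and 109 counts in SCI+Syr libraries 1, 2 and 3, against 251, 31 and 40 counts in SCI libraries 1, 2 and 3, so it was highest in the 3 libraries with the highest ganglion marker sums.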
